A study of Mus musculus with 17 samples.

Results

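Fetal liver cells carrying a miR-125b transgene were compared with cells carrying a control short hairpin, sh-ctrl, after 10 days of doxycycline. The comparison takes 6 of the 17 libraries of the study, miR-125b replicates 1, 2 and 3 against sh-ctrl replicates 1, 2 and 3, chosen by their labels alone, and all genes of their shared count table by Ensembl identifier. The livers were taken at E12.5-13.5 from a B6J.129(Cg) line (Fezh/J) whose Gt(ROSA)26Sor locus carries Cas9 and EGFP behind the CAG promoter. Every group used here, the controls included, also carried the guide RNA sgGata1, and the labels call such cells Gata1s, after a truncated GATA1 transcription factor that lacks its N-terminal part. All had doxycycline at 1 µg/mL for 10 days. Another group of the same table, a hairpin against Arid3a (shArid3a, libraries 1 and 3), had the same strain, guide, doxycycline and time, and served as an added reference. It differed from sh-ctrl in 12 genes (0.0857% of those tested), but with 2 libraries large differences stayed uncalled. Thbs1 and Slc35d3, for example, had log2 fold changes of -3.45 and -2.49 in shArid3a (both adjusted p = 0.0989, edgeR quasi-likelihood test). The small number of calls is therefore no measure of likeness to sh-ctrl. What drives the miR-125b and hairpin transgenes, and whether libraries came from separate embryos or cultures, is not given in the sources used here, so p-values measure only the spread between these libraries. Total counts were 31992089 to 36030379 per sh-ctrl library, 35072928 to 40859301 per miR-125b library and 36997667 to 37323891 per shArid3a library.

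A microRNA guides an Argonaute protein to messenger RNAs whose 3′ untranslated region (UTR) pairs with its seed, bases 2 to 8 of the mature strand, and the bound messenger is then translated less and degraded. miR-125b is known for its action in blood stem cells, in megakaryocyte progenitors and in leukemia. It has more than a single gene, and a human gene for it lies on the chromosome that is trisomic in Down syndrome. The megakaryoblastic leukemias of that syndrome carry Gata1s mutations. Arid3a, a DNA-binding protein of the ARID family, is among the described targets of miR-125b.

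The mature strand of miR-125b, which both mouse genes give with the same letters, is shown with its seed in capitals because the seed defines the matches counted below. Its relative miR-125a has the same seed. Positions are those of GRCm38.p6 in RefSeq, on the plus strand: chr9:41581940-41581961 for Mir125b-1, chr16:77646279-77646300 for Mir125b-2 and chr17:17830817-17830840 for Mir125a.
mmu-miR-125b-5p: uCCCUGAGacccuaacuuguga
mmu-miR-125a-5p: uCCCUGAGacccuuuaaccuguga

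The strongest form of seed match in a messenger, the 8mer, has the letters CTCAGGGA: 7 bases that pair with the seed, then an A. The 7mer-m8 form is CTCAGGG, the 7mer-A1 form TCAGGGA and the 6mer TCAGGG, and an 8mer holds all of them. Only the sense strand of annotated 3′ UTRs was searched (GENCODE M21, GRCm38). The following 30-base windows end with the 8mer, in capitals, in the genes with such a match and an average log2 CPM of at least 3 that fell most. They lie in 3′ UTRs and are written along the messenger, 5′ to 3′.
Arid3a, first site, chr10:79952865-79952894, plus strand: ggagtgcagtggcctcctgtgcCTCAGGGA
Arid3a, second site, chr10:79953798-79953827, plus strand: gtccacctccatgggtaactggCTCAGGGA
Nr2c2, chr6:92170096-92170125, plus strand: gctgacctgtctagacacccctCTCAGGGA
Sec14l2, chr11:4097964-4097993, minus strand: agtgaagcgattggatgtcataCTCAGGGA
Abtb1, chr6:88836079-88836108, minus strand: ccaagatttggggcaggcaccaCTCAGGGA
Arid3b, chr9:57791441-57791470, minus strand: gggggtgtagcaggtggggtgaCTCAGGGA
E2f2, chr4:136194319-136194348, plus strand: tctgagaggccttccacctaccCTCAGGGA
Baz2a, chr10:128127599-128127628, plus strand: caaacctccctcttgggaactcCTCAGGGA
Zfp597, chr16:3864903-3864932, minus strand: gtgtggggagagagtctccctgCTCAGGGA

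The transgene itself could not be checked in these counts. Of 11 microRNA genes and host transcripts of the miR-125 clusters in the table, 10 had no count in any of the 6 libraries, Mir125b-1, Mir125b-2 and Mir125a included. Standard libraries of longer RNA do not hold mature microRNAs, and no count here reports the level of miR-125b.

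Arid3a (ENSMUSG00000019564, chr10:79927043-79955018, plus strand) fell in every miR-125b library. Its level in CPM (counts scaled to library size by the trimmed mean of M values, TMM) was 45.2, 56.3 and 57.2 in sh-ctrl replicates 1, 2 and 3 and 7.14, 9.75 and 10.0 in miR-125b replicates 1, 2 and 3. The groups did not overlap, and the log2 fold change was -2.56 (SE 0.18, adjusted p = 0.000282, edgeR quasi-likelihood test over all genes). Its 3′ UTR of 3082 bases holds 6 matches of the 7mer-m8 form, of which 2 are the 8mers shown above. The 2 shArid3a libraries had 20.4 and 18.9 CPM, above all 3 miR-125b libraries (log2 difference of miR-125b from shArid3a -1.13, SE 0.19, adjusted p = 0.024). This direct call was lost without shArid3a replicate 1 (adjusted p = 0.164), shArid3a replicate 3 (0.0633), miR-125b replicate 2 (0.0812) or miR-125b replicate 3 (0.0511).

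Gata1 (ENSMUSG00000031162), which all groups had as the target of the guide, was at 317, 442 and 534 CPM in sh-ctrl and at 245, 282 and 407 CPM in miR-125b. The groups overlapped, and the fold change of -0.47 (SE 0.23) did not pass the test (adjusted p = 0.162). With the replicate number as a block it passed, at an adjusted p of 0.046. A count over the whole gene does not separate the short form from the full form.

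The other genes of the printed sites also fell with no overlap of the groups. Abtb1, an ankyrin-repeat and BTB-domain protein, went from 80.8, 86.2 and 93.2 CPM to 15.1, 28.7 and 23.7 CPM (log2 fold change -1.94, SE 0.21, adjusted p = 0.00159). Arid3b, the closest relative of Arid3a, went from 27.8, 24.1 and 26.2 to 7.97, 7.41 and 5.13 CPM (-1.93, SE 0.24, adjusted p = 0.00305). E2f2, a transcription factor of the cell cycle, went from 72.1, 68.4 and 58.4 to 20.7, 21.3 and 12.2 CPM (-1.88, SE 0.24, adjusted p = 0.00331). Both replicate spreads were small beside these drops.

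Sec14l2, a lipid-binding protein, was at 40.6, 72.9 and 35.1 CPM in sh-ctrl and at 13.7, 16.7 and 5.74 CPM in miR-125b (log2 fold change -2.04, SE 0.39, adjusted p = 0.00899). The nuclear receptor Nr2c2 fell by 2.32 on the log2 scale (SE 0.42, adjusted p = 0.00805), the chromatin protein Baz2a by 1.76 (SE 0.22, adjusted p = 0.00326) and the zinc finger gene Zfp597 by 1.58 (SE 0.33, adjusted p = 0.0112). All 8 genes of the printed sites kept their call in each of the 16 alternative analyses. Abtb1, E2f2, Baz2a and Arid3a overlap no other annotated gene. Arid3b, Nr2c2, Sec14l2 and Zfp597 overlap genes on the other strand, and since the counting is not stated to use strand, reads of the overlap cannot be assigned. The same holds for Mpo, Gch1, Irs2, Ulbp1, Thbs1, Cpox, Cebpa, Gins2, Mki67, Cdk4, Mdm4, Il1b, Icam1, Igf2r, Insr, Foxo1, Il10ra, Ets1, Tut7, Ago2, Jarid2, Kdm5a, Idi1, Igf2bp3, Reln, Eng, Lamp1, Itga6, Psmb10, B2m, Cx3cr1, Nfkbib, Lmo2, Bad, Bcl2l13, Afp, Psme1, Pdia3 and Acacb below.

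**Figure D1:**
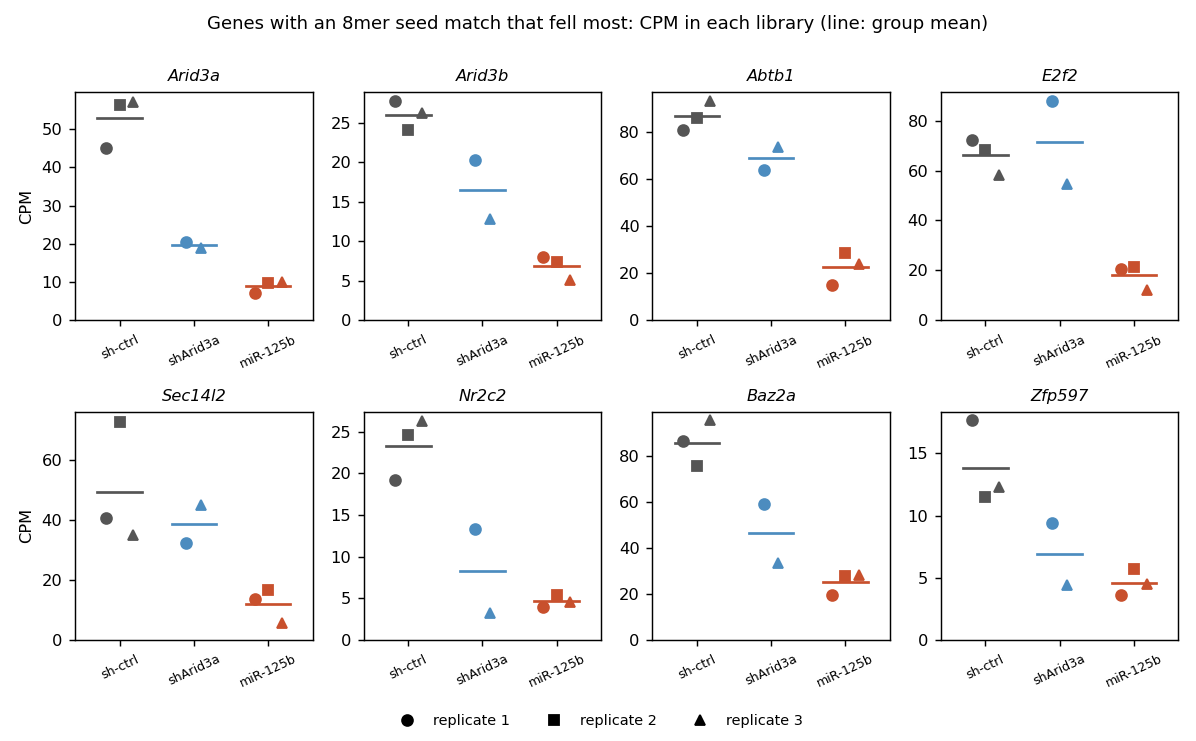
CPM (y axis, from 0) of the 8 genes whose sites are printed, in each sh-ctrl, shArid3a and miR-125b library; the symbol gives the replicate number and the line the group mean. All miR-125b libraries lie below all sh-ctrl libraries in each panel, and Arid3a is lower under miR-125b (7.14 to 10.0 CPM) than under shArid3a (18.9 and 20.4 CPM).

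Arid3a and Arid3b belong to the ARID family. Of 15 genes with an ARID domain, 13 were tested, 7 fell, 0 rose, and the median log2 fold change was -0.66. Among all 14004 genes tested, 1714 (12.2%) fell, 1700 (12.1%) rose, and the median was -0.03. Jarid2, a partner of the Polycomb complex, went from 85.3, 81.5 and 90.5 CPM to 25.8, 39.0 and 46.7 CPM (-1.21, SE 0.20, adjusted p = 0.00648). The histone demethylase Kdm5a fell by 0.92 (SE 0.15, adjusted p = 0.00621), and Arid1a, Arid2 and Arid4b were the remaining members called lower. Neither Jarid2 nor Kdm5a has an 8mer match in its 3′ UTR. The falls numbered 6 to 7 with 1 library left out at a time, and the same list had a median of -0.59 in shArid3a against the same controls.

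A list of 40 genes recalled from the literature as miR-125b targets had 29 tested members, of which 13 fell (44.8%) and 2 rose (6.9%). Among all genes tested 12.2% fell and 12.1% rose. The list median was -0.36. Beside Arid3a, Abtb1, Lin28b and Bmf, the members that fell included Klf13, a Krüppel-like factor (58.4, 56.1 and 53.7 to 17.5, 20.6 and 19.1 CPM), Tet2, an enzyme that oxidizes methylcytosine (19.3, 12.02 and 22.2 to 5.89, 6.89 and 7.36 CPM), and Trp53inp1, a p53-induced gene. The fall of Trp53inp1 (-1.56, adjusted p = 0.0409) was lost in the robust fit and with any sh-ctrl replicate or miR-125b replicate 2 left out (adjusted p from 0.0503 to 0.141). Some often named targets did not pass: Bak1, a pro-apoptotic BCL2 protein with 1 8mer match, was at 128, 161 and 117 against 124, 122 and 120 CPM (-0.15, SE 0.14, adjusted p = 0.457), and Trp53 was at 290, 372 and 302 against 457, 429 and 372 CPM (0.38, SE 0.14, adjusted p = 0.0726). The 2 that rose were Smo, the Hedgehog receptor partner (2.46, 2.14 and 1.56 to 11.8, 11.9 and 14.3 CPM, log2 fold change 2.62, SE 0.44, adjusted p = 0.00651), and the transcription factor Ets1 (0.734, 0.528 and 0.318 to 3.35, 5.26 and 2.35 CPM, 2.79, SE 0.62, adjusted p = 0.0142). Ets1 rose although its 3′ UTR holds an 8mer match, and its call was lost without sh-ctrl replicate 3 (adjusted p = 0.0644).

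Genes were then grouped by the strongest match in any annotated 3′ UTR. The 681 genes with an 8mer had a median log2 fold change of -0.29, and 25.8% of them fell while 5.0% rose. The 1227 genes with a 7mer-m8 but no 8mer had a median of -0.26 (20.5% fell), the 857 with only a 7mer-A1 -0.24 (20.9% fell), and the 1580 with only a 6mer -0.07 (15.3% fell). The 7160 genes with none of these had a median of 0.08, with 9.5% lower and 17.6% higher. The medians were thus ordered from 8mer to none. Those of shArid3a against the same controls, where no miR-125b was added, ran nearly alike: -0.19, -0.20, -0.17, -0.09 and 0.06. Both contrasts subtract the same sh-ctrl libraries, so any deviation of those libraries enters both alike. This holds wherever medians of shArid3a are set beside those of miR-125b, and its part in their likeness was not tested. In the direct contrast of miR-125b and shArid3a the medians were -0.07, -0.04, -0.03, 0.01 and 0.01.

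Medians were also lower with more matches. Genes with 1 8mer had a median of -0.28 and the 32 genes with 2 or more -0.43, against -0.19 and -0.25 in shArid3a, and their direct medians were -0.07 and -0.03. By 7mer-m8 matches the medians were 0.03 with none, -0.25 with 1, -0.38 with 2 and -0.41 with 3 or more, and in shArid3a 0.01, -0.18, -0.25 and -0.42. The direct medians were 0.01, -0.05, -0.07 and -0.01, so these medians did not follow the order by number. Direct calls did: 62 of 9597 genes with none were lower, 20 of 1593 with 1, 9 of 262 with 2 and 3 of 53 with 3 or more. Called higher were 77, 12, 0 and 0. Bmf, a pro-apoptotic BCL2 relative with 3 8mers, fell from 8.22, 5.86 and 6.06 to 2.17, 1.498 and 2.93 CPM (-1.61, SE 0.33, adjusted p = 0.0111). Other genes with many matches, named after their values were seen, varied. Ddx19b, with 4 8mers, had a fold change of -0.72 that did not pass (adjusted p = 0.148). Mesd, with 4 7mer-m8 matches, rose by 0.55 (adjusted p = 0.021).

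The length of the 3′ UTR moved with the fold change as well. In 4 equal classes of length, from 3-482 to 2251-122583 bases, the medians of all genes were 0.29, 0.07, -0.11 and -0.28. In shArid3a against the same controls they were 0.22, 0.05, -0.09 and -0.28. Within the classes, genes with an 8mer had medians of 0.08 (35 genes), -0.31 (113), -0.16 (183) and -0.33 (350), against 0.30, 0.11, -0.09 and -0.21 for genes with no 7mer or 8mer. The difference by match was therefore widest in UTRs of 483-1133 bases and narrow in the longer classes. Genes with an 8mer in the coding sequence (554, median -0.24) or the 5′ UTR (112, median -0.23) but no 7mer or 8mer in the 3′ UTR were also low, as were 523 genes with an 8mer for the passenger strand miR-125b-2-3p (median -0.18), and the part of transcript length in these values was not tested. Of the genes called lower that have an annotated 3′ UTR, 60.4% held no 7mer or 8mer for miR-125b-5p, against 76.0% of all genes with a 3′ UTR.

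**Figure D2:**
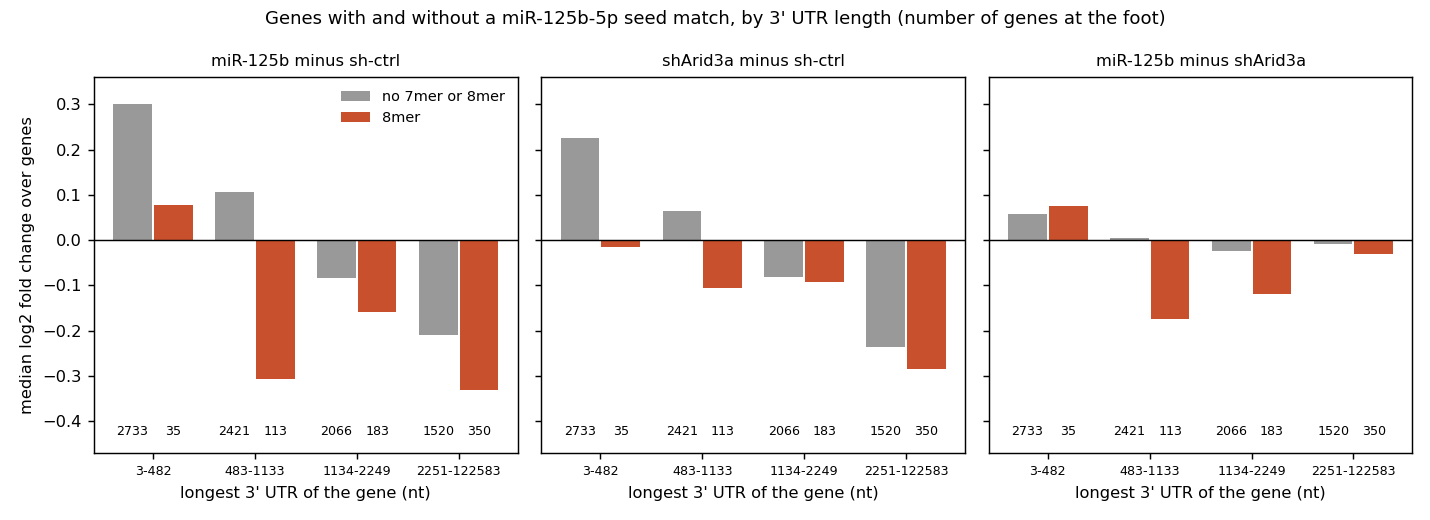
Median log2 fold change (y axis) of genes with an 8mer match (red) and with no 7mer or 8mer match (grey), in 4 classes of 3′ UTR length (x axis, bases), for miR-125b and shArid3a against sh-ctrl and for miR-125b against shArid3a; the number of genes stands at the foot of each bar. From the shortest to the longest class, medians of genes with no 7mer or 8mer go from 0.30 to -0.21 for miR-125b against sh-ctrl. For shArid3a against sh-ctrl they go from 0.23 to -0.24, and in the direct contrast from 0.06 to -0.01.

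Setting miR-125b directly against shArid3a uses no sh-ctrl value as the reference. In this contrast 189 genes (1.35% of those tested) differed, 93 higher and 96 (0.686%) lower under miR-125b, and 160 of them were also called against sh-ctrl. In the direct comparison, 21 genes with an 8mer (3.08%) were lower and 3 were higher, against 53 (0.606%) lower and 75 higher of the 8740 genes with no 7mer or 8mer. All 21 were also called lower against sh-ctrl. Both contrasts use the same miR-125b libraries and the same estimate of spread, so calls shared between them are not separate support. By length class the direct medians were 0.08, -0.17, -0.12 and -0.03 with an 8mer and 0.06, 0.01, -0.03 and -0.01 without a 7mer or 8mer. These calls depend on single libraries: without shArid3a replicate 1 the direct comparison called 12 genes, 0 of them lower with an 8mer, and without shArid3a replicate 3 it called 109, 15 of them lower with an 8mer. Leaving out miR-125b replicate 2 gave 26 calls, 3 of them lower with an 8mer, and leaving out miR-125b replicate 3 gave 70 and 7. Without sh-ctrl replicates 1, 2 or 3, which enter this contrast through the filter, the scaling and the estimate of spread, 14, 12 and 13 genes with an 8mer were lower.

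The 21 genes, named here after their values were seen, include Arid3a, Arid3b, Abtb1, E2f2, Lin28b and Klf13. Mfsd13a, a membrane transporter-like protein, was at 52.9, 37.5 and 42.3 CPM in sh-ctrl, 67.8 and 46.2 in shArid3a and 22.6, 17.4 and 17.0 in miR-125b (direct log2 difference -1.59, SE 0.22, adjusted p = 0.0103). Cln6, a membrane protein of the endoplasmic reticulum, was at 67.4, 69.8 and 67.6, then 94.1 and 85.2, then 43.0, 33.3 and 33.5 CPM (-1.29, SE 0.15, adjusted p = 0.00456). M6pr, which carries lysosomal enzymes from the Golgi, was at 335, 344 and 319, then 383 and 395, then 215, 191 and 186 CPM (-0.98, SE 0.13, adjusted p = 0.00953). In all 3 genes every miR-125b library was below every library of the other groups. Without shArid3a replicate 1 their direct calls were lost (adjusted p = 0.0972, 0.0537 and 0.0738), and without miR-125b replicate 2 those of Mfsd13a (0.0664) and M6pr (0.0682).

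Others of the set were Tyk2, a Janus kinase of cytokine receptors (direct log2 difference -1.04, SE 0.21, adjusted p = 0.045), Podxl, a surface sialomucin (-1.01, SE 0.21, adjusted p = 0.0462), Ipmk, an inositol phosphate kinase (-0.79, SE 0.16, adjusted p = 0.0413), and Fech, which inserts iron into heme (-0.66, SE 0.13, adjusted p = 0.0383). These 4 direct calls were lost under the replicate block (adjusted p = 0.0634, 0.0559, 0.0688 and 0.0574) and, among other libraries, without shArid3a replicate 1 (0.357, 0.183, 0.304 and 0.288). Ets1, Lamc1 and Csf2rb were the 3 with an 8mer that were higher. Lamc1, a laminin chain, was at 2.77, 2.05 and 1.05 CPM in sh-ctrl, 0.462 and 0.118 in shArid3a and 8.67, 8.01 and 8.42 in miR-125b (direct log2 difference 4.82, SE 0.63, adjusted p = 0.00899).

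Against sh-ctrl, 3414 genes (24.4% of 14004) were called. The called rises had a median size of 0.70 and the called falls of -0.95, and 802 genes fell by at least 1 on the log2 scale (5.73% of those tested) while 285 rose by as much (2.04%). Of the 3414, 300 rises and 402 falls kept their call in every alternative that gave a value. The count dropped to 734 without sh-ctrl replicate 3, of which 729 were among the 3414, and to 1766, 2229 and 2032 without miR-125b replicates 1, 2 and 3. When library totals replaced TMM, the median of all genes shifted by -0.19 and the share of rises among the calls went from 49.8% to 26.6%, so rises and falls are stated relative to the TMM scale.

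RNA composition differed between the groups. Ribosomal RNA-like genes took 0.0389 to 0.0699% of the counts in sh-ctrl, 0.237 to 0.337% in miR-125b and 0.302 to 0.318% in shArid3a. Of 7 such genes tested 5 rose, Lars2, which holds a ribosomal RNA-like stretch, among them (97.0, 84.3 and 70.2 to 659, 783 and 710 CPM, log2 fold change 3.10, SE 0.17, adjusted p = 3.3e-05). In shArid3a Lars2 was at 815 and 939 CPM. Mitochondrial genes took 2.53 to 4.54% of the counts in sh-ctrl and 1.89 to 2.46% in miR-125b. The part of this composition in the changes below was not tested. Leaving the ribosomal RNA-like genes out changed the number of calls to 3426.

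The groups did not overlap in 3076 of the 14004 genes with miR-125b higher and in 3216 with miR-125b lower. The largest rises among called genes of this kind included granule genes. Mpo (ENSMUSG00000009350), the peroxidase of neutrophil granules, was at 0.565, 0.0293 and 0 CPM in sh-ctrl and at 62.2, 26.4 and 36.4 CPM in miR-125b (log2 fold change 7.73, SE 0.84, adjusted p = 0.00161). Serpinb1a (ENSMUSG00000044734), an inhibitor of neutrophil proteases, rose from 24.7, 18.7 and 23.6 to 432, 283 and 286 CPM (3.90, SE 0.31, adjusted p = 0.000433). The shArid3a libraries had 0.163 and 0.177 CPM of Mpo and 10.9 and 25.8 CPM of Serpinb1a. The fitted fold change of a gene near 0 in one group, such as Mpo, depends on the prior count and is no bound. The direct differences were 7.91 (SE 1.03, adjusted p = 0.00899) and 4.19 (SE 0.38, adjusted p = 0.00189), and without shArid3a replicate 1 that of Mpo did not pass (adjusted p = 0.094).

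Tmem176a and Tmem176b, neighbouring genes of membrane proteins of myeloid cells, rose together. Tmem176b went from 4.38, 5.83 and 4.25 to 25.1, 37.5 and 52.8 CPM (log2 fold change 2.997, SE 0.30, adjusted p = 0.00118) and was at 1.36 and 2.01 CPM in shArid3a. Tmem176a rose by 2.49 (SE 0.32, adjusted p = 0.00352). They overlap each other on opposite strands, so their reads are not fully separate.

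Gch1, the first enzyme of tetrahydrobiopterin synthesis, rose from 5.62, 2.76 and 3.69 to 25.9, 19.3 and 16.4 CPM (2.35, SE 0.30, adjusted p = 0.00348). Gng11, a G protein gamma subunit of platelets, rose from 11.9, 4.25 and 2.296 to 23.5, 27.7 and 48.7 CPM (2.44, SE 0.54, adjusted p = 0.0142). Igfbp4, which binds insulin-like growth factors, rose from 16.1, 2.67 and 4.30 to 53.9, 53.3 and 55.6 CPM (2.82, SE 0.65, adjusted p = 0.0159), a call that was lost without sh-ctrl replicate 3 (adjusted p = 0.0688) and in the robust fit. Gabrg1, a GABA receptor subunit, rose by 2.83 (SE 0.87, adjusted p = 0.0397), and 5 of the 6 analyses that left out a library lost the call, with adjusted p from 0.0733 (without sh-ctrl replicate 1) to 0.1055 (without miR-125b replicate 3). The exception was the analysis without miR-125b replicate 1, and the robust fit and library totals also ended the call.

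The largest falls at an average log2 CPM of at least 3 spanned an ectoenzyme, growth factors and transcription factors. Nt5e (ENSMUSG00000032420), which makes adenosine from AMP at the cell surface, fell from 20.7, 13.2 and 17.5 to 1.47, 0.463 and 0.733 CPM (log2 fold change -4.28, SE 0.41, adjusted p = 0.00107), and shArid3a had 7.34 and 9.88 CPM. Tspoap1, a protein of presynaptic zones that binds the benzodiazepine receptor, fell from 159, 48.3 and 143 to 6.37, 9.94 and 6.12 CPM (-3.96, SE 0.48, adjusted p = 0.00304). Vegfa, the endothelial growth factor, fell from 130, 61.3 and 152 to 14.3, 17.5 and 28.0 CPM (-2.52, SE 0.36, adjusted p = 0.00465). No miR-125b library reached the lowest sh-ctrl library in these 3 genes.

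Irs2, the insulin receptor substrate, fell by 2.87 (SE 0.72, adjusted p = 0.0203), a call lost without sh-ctrl replicate 3 (adjusted p = 0.0778) or miR-125b replicate 3 (adjusted p = 0.0517). Slc35d3, a transporter-like protein needed for platelet dense granules, went from 76.0, 26.7 and 63.0 to 5.23, 10.4 and 14.3 CPM (-2.47, SE 0.46, adjusted p = 0.0085), and was as low in shArid3a, at 13.4 and 6.22 CPM. The Notch target Hes1 fell by 2.43 (SE 0.45, adjusted p = 0.00832), the chromatin remodeller Chd3 by 2.44 (SE 0.39, adjusted p = 0.00616), the zinc finger gene Zfp445, which acts on imprinted loci, by 2.78 (SE 0.49, adjusted p = 0.00742), and Ulbp1, a ligand of the NKG2D receptor, by 2.54 (SE 0.46, adjusted p = 0.00791). None of these genes has an 8mer match in an annotated 3′ UTR.

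Platelet and megakaryocyte genes changed in both directions, which in bulk RNA cannot separate fewer cells of a type from less RNA per cell. Of 34 members tested 9 fell (26.5%, against 12.2% of all genes tested) and 4 rose (11.8%, against 12.1%). The median was -0.36, and that in shArid3a was also -0.36. Itgb3, the beta chain of the fibrinogen receptor, fell from 391, 390 and 402 to 69.9, 130 and 168 CPM (log2 fold change -1.68, SE 0.26, adjusted p = 0.00605), with 136 and 161 CPM in shArid3a. Vwf, the von Willebrand factor, fell from 13.6, 11.5 and 17.3 to 2.01, 3.90 and 7.15 CPM (-1.70, SE 0.40, adjusted p = 0.0171), and Thbs1, a thrombospondin of platelet granules, by 2.27 (SE 0.57, adjusted p = 0.0208). Without sh-ctrl replicate 3 the adjusted p was 0.068 for Vwf and 0.0533 for Thbs1, whose call the robust fit also ended.

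Serpine2, a protease inhibitor of platelets, rose from 158, 174 and 177 to 344, 403 and 474 CPM (1.27, SE 0.14, adjusted p = 0.0021), and was at 128 and 139 CPM in shArid3a. Pf4, the platelet factor, was at 2207, 973 and 1142 CPM against 2115, 1274 and 1795 CPM, and did not pass the test (adjusted p = 0.538). With 1 library left out at a time the list had 2 to 4 rises and 2 to 9 falls, the fewest of both without sh-ctrl replicate 3.

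Erythroid genes had more falls than rises. Of 33 members tested 10 fell (30.3%) and 1 rose (3.0%), beside 12.2% and 12.1% of all genes tested. The median was -0.68, against -0.05 in shArid3a. The adult beta globin Hbb-bs fell from 149, 150 and 302 to 17.8, 49.4 and 62.3 CPM (log2 fold change -2.21, SE 0.44, adjusted p = 0.0103), a near-identical copy of Hbb-bt whose reads the counting could split. The heme enzyme Cpox fell from 124, 84.7 and 142 to 31.7, 32.0 and 32.4 CPM (-1.87, SE 0.28, adjusted p = 0.00548), while shArid3a had 190 and 82.6 CPM (direct difference -2.09, SE 0.30, adjusted p = 0.0124, and 0.0802 without shArid3a replicate 1 and 0.0717 without miR-125b replicate 2). Fech, the last enzyme of the heme pathway, fell by 0.71 (SE 0.12, adjusted p = 0.00648), the skeletal protein Epb41 by 0.76 (SE 0.15, adjusted p = 0.0107) and the ubiquitin ligase Trim58 by 1.37 (SE 0.28, adjusted p = 0.0107).

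Alad, an early enzyme of the same heme pathway, rose from 83.3, 99.3 and 90.4 to 165, 138 and 137 CPM (0.69, SE 0.13, adjusted p = 0.00909). Hba-a1 (-0.75, adjusted p = 0.116) and the erythroid factor Klf1 (-0.86, adjusted p = 0.131) did not pass. The falls of the list numbered 5 without sh-ctrl replicate 3 and up to 11 without other libraries.

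Some granulocyte genes rose, most of them from low levels. Of 30 listed genes 14 passed the filter, 5 rose (35.7%) and 0 fell, beside 12.1% and 12.2% of all genes tested. The median was 1.86 against -0.20 in shArid3a. These counts and this median include genes that passed only through the group where they were high. When only genes with 10 counts in every library were kept, the median of the list was -0.15. Beside Mpo, the rises were in the elastase Elane (0.113, 0.205 and 0.171 to 2.01, 0.953 and 0.683 CPM), haptoglobin Hp (0.170, 0.381 and 0.0489 to 2.42, 1.93 and 1.95 CPM), the transcription factor Cebpa (3.45, 2.40 and 0.684 to 9.27, 7.46 and 5.06 CPM) and annexin Anxa1 (11.02, 4.25 and 3.69 to 18.03, 14.4 and 18.1 CPM). Mpo was the one rise left without sh-ctrl replicate 3. Elane also lost its call with sh-ctrl replicate 1 or miR-125b replicate 1 taken out, and Cebpa with sh-ctrl replicate 2 or miR-125b replicates 1 or 2. Late granule genes stayed near 0: S100a9 had at most 0.797 CPM, Lcn2 at most 0.510 CPM and Ltf at most 0.0506 CPM in any of the 6 libraries, and Ly6g, Fpr1, Gfi1 and Chil3 had no count.

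Prtn3 (45.9, 68.2 and 94.1 against 38.1, 48.0 and 104 CPM), a proteinase of the same granules as Mpo, did not pass the test (-0.13, SE 0.38, adjusted p = 0.827). Of 30 listed monocyte and macrophage genes 12 passed the filter, 3 rose and 0 fell, beside 12.1% and 12.2% of all genes tested. The rises were in Cd14, Cx3cr1 and the lysozyme Lyz2. Cd14 went from 0, 0.117 and 0.0244 to 2.04, 0.926 and 1.04 CPM. With 5 counts over the sh-ctrl libraries and 139 over the miR-125b libraries, Cd14 passed the filter only through miR-125b. The counts of the list thus include a gene tested only because it was high there. Lyz2 went from 8.47, 3.66 and 3.84 to 14.6, 10.46 and 16.9 CPM. None of these 3 calls held without sh-ctrl replicate 3 (adjusted p 0.0533, 0.0993 and 0.0862). Cx3cr1 also lost its call when any other library but sh-ctrl replicate 2 was taken out, and Lyz2 when sh-ctrl replicate 2 or miR-125b replicate 3 was. The summed level of the list was 40.5 to 70.6 CPM in sh-ctrl and 63.4 to 88.9 CPM in miR-125b, and C1qb, C1qc, Marco, Cd163 and Clec4f were at 0 in all 6 libraries.

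Some mast cell and basophil genes were high in a single miR-125b library. Prss34, a basophil protease, was at 0.170, 0 and 0.293 CPM in sh-ctrl and at 60.1, 2.86 and 2.76 CPM in miR-125b, and Mcpt8, another basophil protease, at 0.0565, 0.0586 and 0.122 against 43.7, 0.872 and 1.57 CPM. Both were called higher (log2 fold change 7.07, SE 1.51, adjusted p = 0.0125, and 7.51, SE 1.66, adjusted p = 0.0141). Without miR-125b replicate 1 their fold changes were 4.12 and 3.87, and without sh-ctrl replicate 3 the adjusted p was 0.0508 and 0.0591. The robust fit also ended both calls. Cpa3, the mast cell carboxypeptidase, was at 21.8, 4.87 and 30.5 against 113, 18.3 and 12.2 CPM and did not pass (adjusted p = 0.29). Of 28 members tested 5 rose (17.9%) and 2 fell (7.1%), beside 12.1% and 12.2% of all genes tested. The median moved from 0.50 to -0.09 without miR-125b replicate 1. Alox5, the lipoxygenase that makes leukotrienes, fell from 772, 860 and 786 to 535, 413 and 517 CPM (-0.72, SE 0.15, adjusted p = 0.0124).

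**Figure D3:**
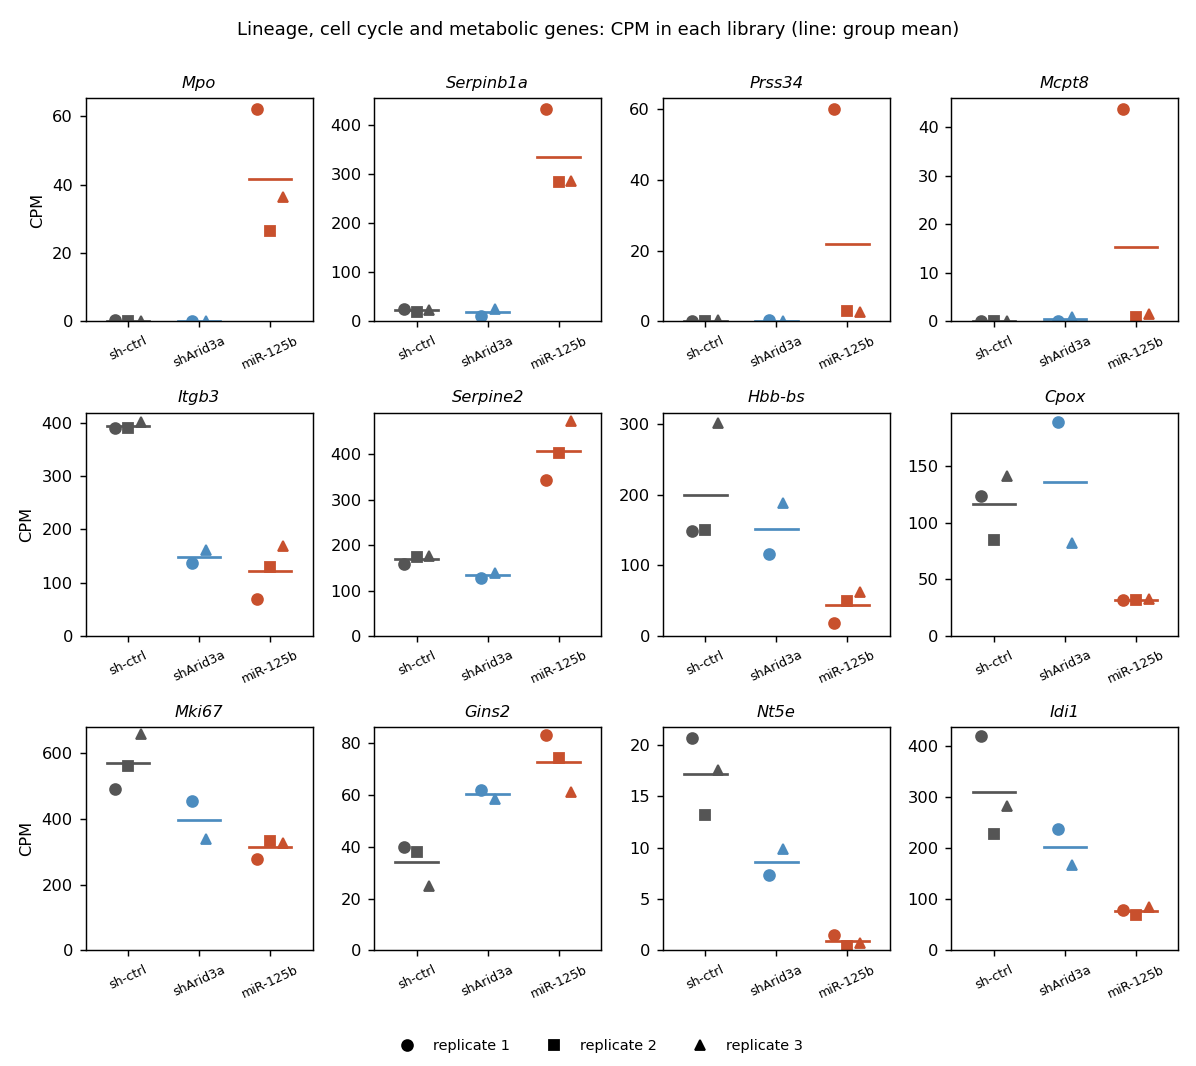
CPM (y axis, from 0, own scale per panel) of 12 genes of the granulocyte, basophil, platelet, erythroid, cell cycle, adenosine and cholesterol groups in each sh-ctrl, shArid3a and miR-125b library; symbols give the replicate number and lines the group means. Mpo is near 0 outside miR-125b, and Prss34 and Mcpt8 are high in miR-125b replicate 1 (60.1 and 43.7 CPM) and under 3 CPM in the other libraries.

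Lists of cells outside the blood lineages differed in level: stromal genes summed to 160 to 249 CPM in sh-ctrl and 126 to 220 in miR-125b, and endothelial genes to 153 to 164 and 128 to 136 CPM. Most of the stromal sum in sh-ctrl was Reln, given below. Of 16 stromal genes 8, Col3a1, Dcn and Lum included, were at 0 in all 6 libraries. Of 15 hepatocyte genes 8 were at 0 in all 6 libraries and Alb, albumin, had at most 0.0244 CPM. The list summed to 0.791 to 1.27 CPM in sh-ctrl and to 3.95 to 5.94 CPM in miR-125b, with a rise of Afp, or alpha-fetoprotein, a plasma protein of fetal liver (0.706, 0.557 and 0.708 to 3.63, 2.94 and 4.63 CPM), and of Apoa2. Neither held without sh-ctrl replicate 3 (adjusted p 0.0569 and 0.0855), and Apoa2 also lost its call with sh-ctrl replicate 2 or miR-125b replicates 1 or 3 taken out. Lymphoid (4 tested) and eosinophil (1 tested) genes had no call, and of 5 stromal genes 1 was called, Reln, a secreted protein, which fell from 128, 173 and 185 to 80.2, 93.5 and 92.3 CPM (-0.87, SE 0.16, adjusted p = 0.00782). Of 9 endothelial genes Eng, a TGF-beta co-receptor, rose from 0.141, 0.293 and 0.635 to 4.08, 2.10 and 2.88 CPM (3.06, SE 0.56, adjusted p = 0.0082), and 1 fell. Their part in the changes of blood genes was not tested.

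Stem and progenitor genes included 2 that rose (8.3%) and 4 that fell (16.7%) among 24 tested (median 0.07), beside 12.1% and 12.2% of all genes. Lin28b, the fetal RNA-binding protein that blocks let-7 maturation, fell from 22.3, 41.8 and 38.4 to 12.1, 17.0 and 10.7 CPM (log2 fold change -1.37, SE 0.25, adjusted p = 0.00858) and holds 1 8mer match, and shArid3a had 31.8 and 35.4 CPM. Igf2bp3, a fetal messenger-binding protein, fell from 31.0, 29.3 and 27.0 to 17.0, 11.4 and 8.32 CPM (-1.25, SE 0.28, adjusted p = 0.0144). Slamf1, a surface marker of blood stem cells, was at 6.89, 3.55 and 8.38 against 0, 0.0545 and 0.708 CPM (-4.56, SE 0.96, adjusted p = 0.0123). The Slamf1 call was lost without sh-ctrl replicate 3 (adjusted p = 0.0505), as were the rises of the progenitor factors Lmo2 (0.73, adjusted p = 0.0308 with all libraries and 0.0534 without that one) and Hhex (0.54, 0.0338 and 0.114). Lmo2 also lost its call with library totals and when any other library but miR-125b replicate 1 was taken out, and Hhex with library totals and when sh-ctrl replicate 1 or miR-125b replicates 1 or 2 were. Runx1, Tal1, Meis1, Myb and Gata2 were among the members that did not pass.

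Replication genes had more rises than falls. Of 40 S phase genes 12 rose and 1 fell (median 0.39, and 0.46 in shArid3a). Gins2, a subunit of the replicative helicase, rose from 40.1, 37.9 and 24.9 to 83.2, 74.2 and 61.2 CPM (log2 fold change 1.09, SE 0.19, adjusted p = 0.00712). Tyms, which makes thymidylate, also rose (0.67, SE 0.18, adjusted p = 0.0245), and its call ended when sh-ctrl replicates 1 or 3 or miR-125b replicates 1 or 2 were taken out, and with library totals. The one fall was E2f2, described above, a transcription factor that drives such genes. A single rise, that of Gins2, was left when sh-ctrl replicate 3 or miR-125b replicate 1 was taken out, and up to 14 without other libraries.

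Of 40 mitotic genes 7 rose (17.5%) and 1 fell (2.5%), beside 12.1% and 12.2% of all genes tested. The median was 0.12, and 0 rose without sh-ctrl replicate 3. Birc5, or survivin, rose from 174, 177 and 150 to 291, 255 and 243 CPM (0.66, SE 0.15, adjusted p = 0.0142, and 0.0653 without that library). Mki67, the proliferation marker, fell from 491, 561 and 660 to 279, 333 and 328 CPM (-0.86, SE 0.16, adjusted p = 0.00909). Plk1, Cdk1 and Ccnb1, which drive mitosis, did not pass (adjusted p = 0.07, 0.051 and 0.755). The kinase Cdk4 rose from 390, 409 and 307 to 783, 646 and 581 CPM (0.86, SE 0.17, adjusted p = 0.00937), and Btg1, an antiproliferative gene, fell from 50.5, 46.8 and 44.2 to 23.7, 29.3 and 27.2 CPM (-0.82, SE 0.14, adjusted p = 0.00671).

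Among 33 p53 response genes 4 rose (12.1%) and 4 fell (12.1%), no more than among all genes tested (12.1% and 12.2%). Phlda3, an inhibitor of AKT, rose from 49.0, 34.6 and 43.7 to 79.7, 124.9 and 143 CPM (1.45, SE 0.21, adjusted p = 0.00529), and stayed at 34.9 and 38.5 CPM in shArid3a. Bax, the pro-apoptotic pore protein, rose from 292, 269 and 245 to 383, 509 and 536 CPM (0.82, SE 0.16, adjusted p = 0.0102, and 0.05 without sh-ctrl replicate 3). Mdm4, which restrains p53, fell from 206, 131 and 252 to 63.0, 84.5 and 103 CPM (-1.23, SE 0.26, adjusted p = 0.0125, and 0.0533 without that library). Of 15 BCL2 family genes Bax and Bad rose (13.3%) and Bmf and Bcl2l13 fell (13.3%), again near those shares. Bad lost its call with sh-ctrl replicate 3 taken out, and Bcl2l13 with sh-ctrl replicates 1 or 3 or miR-125b replicates 2 or 3. Without sh-ctrl replicate 3 the p53 list had 1 rise and 0 falls, and the rise was that of Phlda3.

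Interferon-response genes had more falls than rises. Of 35 tested 14 fell (40.0%) and 2 rose (5.7%), beside 12.2% and 12.1% of all genes tested. The median was -0.78 (-0.46 in shArid3a). Oas3, an antiviral oligoadenylate synthetase, fell from 17.5, 12.7 and 19.7 to 3.98, 2.34 and 5.66 CPM (log2 fold change -2.06, SE 0.39, adjusted p = 0.00917). Rsad2, or viperin, fell from 4.15, 4.46 and 5.33 to 0.669, 0.926 and 1.14 CPM (-2.34, SE 0.49, adjusted p = 0.0118, and 0.0513 without sh-ctrl replicate 3). The sensors Ddx58 and Ifih1 and the factors Irf7, Irf9 and Stat2 were also called lower, while Isg15 and Ifit1 did not pass. With 1 library left out the falls numbered 3 (without sh-ctrl replicate 3) to 13.

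NF-kB and inflammatory genes gave 3 rises and 5 falls of 25 tested. The share of rises was near that of all genes tested (12.1%), and the share of falls was above theirs (12.2%). Il1b, the cytokine, fell from 14.6, 6.16 and 6.96 to 1.94, 2.996 and 3.16 CPM (-1.77, SE 0.37, adjusted p = 0.0115). Icam1, an adhesion molecule of inflamed cells, rose from 6.72, 3.11 and 4.81 to 11.2, 14.9 and 17.3 CPM (1.57, SE 0.40, adjusted p = 0.0216), and its call was lost without sh-ctrl replicates 2 (adjusted p = 0.057) or 3 (0.081) or miR-125b replicates 2 (0.0514) or 3 (0.0602). The rise of Nfkbib (adjusted p = 0.0473) was lost with the replicate number as a block (0.053), with library totals, and when any library but sh-ctrl replicate 2 was taken out.

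Genes of insulin and IGF signalling had more falls than rises. Of 27 insulin and IGF genes 9 fell (33.3%) and 1, Igfbp4, rose (3.7%), beside 12.2% and 12.1% of all genes tested. The median was -0.28, and -0.48 in shArid3a. Igf2r, the clearance receptor of IGF2, fell from 32.8, 27.9 and 48.7 to 9.18, 8.04 and 9.15 CPM (-2.05, SE 0.28, adjusted p = 0.00432). The insulin receptor Insr fell from 19.6, 11.4 and 16.8 to 5.86, 4.06 and 3.87 CPM (-1.79, SE 0.32, adjusted p = 0.00784), and Foxo1, the factor held back by insulin, from 6.61, 5.45 and 6.52 to 1.88, 2.26 and 1.80 CPM (-1.65, SE 0.28, adjusted p = 0.00651). Without sh-ctrl replicate 3 the falls were 4. Foxo1 holds 1 8mer match.

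Of 29 TGF-beta genes 6 fell (20.7%) and 1, Eng, rose (3.4%), beside 12.2% and 12.1% of all genes tested. The median was -0.33, and -0.54 in shArid3a. Skil, a nuclear brake of the pathway that is also its target, fell from 41.4, 33.7 and 29.9 to 11.7, 14.8 and 11.5 CPM (-1.47, SE 0.21, adjusted p = 0.00518), and the early response factor Klf10 fell by 1.10 (SE 0.20, adjusted p = 0.00778). The receptor Tgfbr1 and the signal carrier Smad3 were also called lower. Without sh-ctrl replicate 3 the falls were 3. Of 27 cytokine receptors 3 fell (11.1%) and 1 rose (3.7%), no more than among all genes tested (12.2% and 12.1%). Il10ra, the interleukin-10 receptor, fell from 8.67, 1.73 and 8.55 to 0.542, 0.627 and 0.683 CPM (-3.35, SE 0.61, adjusted p = 0.0079).

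The adenosine pathway includes Nt5e, described above. Of 17 ectonucleotidases and purine receptors tested 4 fell (23.5%) and 1 rose (5.9%), beside 12.2% and 12.1% of all genes tested. The median was -0.19. Beside Nt5e, the ectoenzyme Enpp1 (2.15, 1.11 and 0.904 to 0.127, 0.109 and 0.126 CPM) and the adenosine receptor Adora2a (27.4, 19.99 and 23.9 to 8.16, 7.03 and 11.4 CPM, log2 fold change -1.42, SE 0.22, adjusted p = 0.00609) fell. The receptor Adora2b rose from 1.58, 3.52 and 2.98 to 4.40, 9.64 and 11.02 CPM (1.63, SE 0.44, adjusted p = 0.0256), and lost the call without sh-ctrl replicates 1 (adjusted p = 0.0646) or 3 (0.0809) or miR-125b replicates 2 (0.0679) or 3 (0.0804).

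Some lipid synthesis genes fell and none listed rose. Of 24 cholesterol genes 8 fell (33.3%) and 0 rose, and of 19 fatty acid genes 7 fell (36.8%) and 0 rose. Among all genes tested 12.2% fell and 12.1% rose. The list medians were -0.28 and -0.35, against 0.24 and -0.02 in shArid3a. By replicate pair the cholesterol medians were -0.45, -0.57 and 0.05 and the fatty acid medians -0.67, -0.55 and -0.14. Idi1, which isomerizes isopentenyl diphosphate, fell from 420, 229 and 283 to 79.2, 69.6 and 84.4 CPM (log2 fold change -1.998, SE 0.23, adjusted p = 0.0021), and Dhcr7, the last step of cholesterol synthesis, from 122, 125.1 and 114 to 65.9, 50.7 and 69.9 CPM (-0.95, SE 0.16, adjusted p = 0.00643). Both were also lower than in shArid3a (direct differences -1.38, SE 0.24, adjusted p = 0.0261, and -1.17, SE 0.17, adjusted p = 0.0125). Both direct calls were lost without shArid3a replicate 1 (adjusted p = 0.211 and 0.119) or miR-125b replicate 2 (0.121 and 0.0664), and that of Idi1 without miR-125b replicate 3 (0.0784). Srebf2, the master regulator of the pathway, was also called lower. Scd2, a desaturase, fell from 1488, 1373 and 1480 to 474, 532 and 918 CPM (-1.18, SE 0.24, adjusted p = 0.0114). Without sh-ctrl replicate 3 the falls were 4 in the cholesterol list and 3 in the fatty acid list.

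Of 23 glycolysis genes 2 fell (8.7%) and 1 rose (4.3%), below the shares of all genes tested (12.2% and 12.1%). The neuronal-type glucose transporter Slc2a3 fell from 340, 156 and 313 to 58.9, 49.9 and 79.9 CPM (-2.10, SE 0.33, adjusted p = 0.00609). Of 34 ATF4-linked genes of amino acid stress 3 rose (8.8%) and 2 fell (5.9%), also below those shares. Vldlr, a lipoprotein receptor, fell from 41.9, 45.5 and 61.0 to 18.6, 16.3 and 21.6 CPM (-1.39, SE 0.22, adjusted p = 0.00609). Of 37 lysosome genes 8 rose (21.6%) and 3 fell (8.1%), beside 12.1% and 12.2% of all genes tested. Lamp1, a membrane protein, rose from 175, 216 and 175 to 298, 306 and 291 CPM (0.66, SE 0.14, adjusted p = 0.0125, and 0.0586 without sh-ctrl replicate 3). Without that library 0 lysosome genes rose and 1 fell.

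Of 24 genes of MHC class I presentation 4 rose (16.7%) and 1 fell (4.2%), beside 12.1% and 12.2% of all genes tested. B2m, the shared light chain, rose from 523, 410 and 379 to 915, 757 and 779 CPM (0.90, SE 0.16, adjusted p = 0.00693), and the immunoproteasome subunit Psmb10 from 90.9, 81.5 and 69.3 to 203, 146 and 152 CPM (1.05, SE 0.18, adjusted p = 0.00651). With the replicate block the rises of Psme1 (adjusted p = 0.0407) and Pdia3 (0.0462) were lost (0.057 and 0.067). Both calls also ended with library totals, and when any library was taken out, except that Pdia3 kept its call without sh-ctrl replicate 2. Of 28 integrin and adhesion genes 4 fell (14.3%) and 3 rose (10.7%), near the shares of all genes tested (12.2% and 12.1%). Itga6, the laminin receptor chain, fell from 184, 192 and 207 to 70.6, 85.6 and 114 CPM (-1.11, SE 0.18, adjusted p = 0.00609). Icam2 rose from 57.5, 67.4 and 68.1 to 107, 124 and 119 CPM (0.86, SE 0.15, adjusted p = 0.0072).

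Genes of the machinery that microRNAs act through had more falls than rises. Of 37 tested 12 fell (32.4%) and 2 rose (5.4%), beside 12.2% and 12.1% of all genes tested. The median was -0.37, and -0.33 in shArid3a. Ago2, the slicing Argonaute, fell from 76.8, 78.0 and 93.8 to 37.7, 39.4 and 38.6 CPM (log2 fold change -1.10, SE 0.17, adjusted p = 0.00548), and Tnrc6a, which joins Argonaute to the deadenylases, from 91.7, 85.03 and 107 to 37.7, 53.01 and 43.1 CPM (-1.08, SE 0.18, adjusted p = 0.00643). Tut7, a uridylase that acts on let-7 with LIN28, fell by 1.24 (SE 0.25, adjusted p = 0.0104). Tarbp2, the partner of Dicer, rose from 51.6, 55.9 and 47.9 to 85.7, 98.5 and 98.9 CPM (0.87, SE 0.15, adjusted p = 0.00681). Dicer1 itself (73.1, 112 and 118 against 48.8, 97.4 and 90.0 CPM) did not pass (adjusted p = 0.317). With 1 library left out the falls numbered 7 to 12, the fewest when sh-ctrl replicate 3 or miR-125b replicate 1 was taken out.

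**Figure D4:**
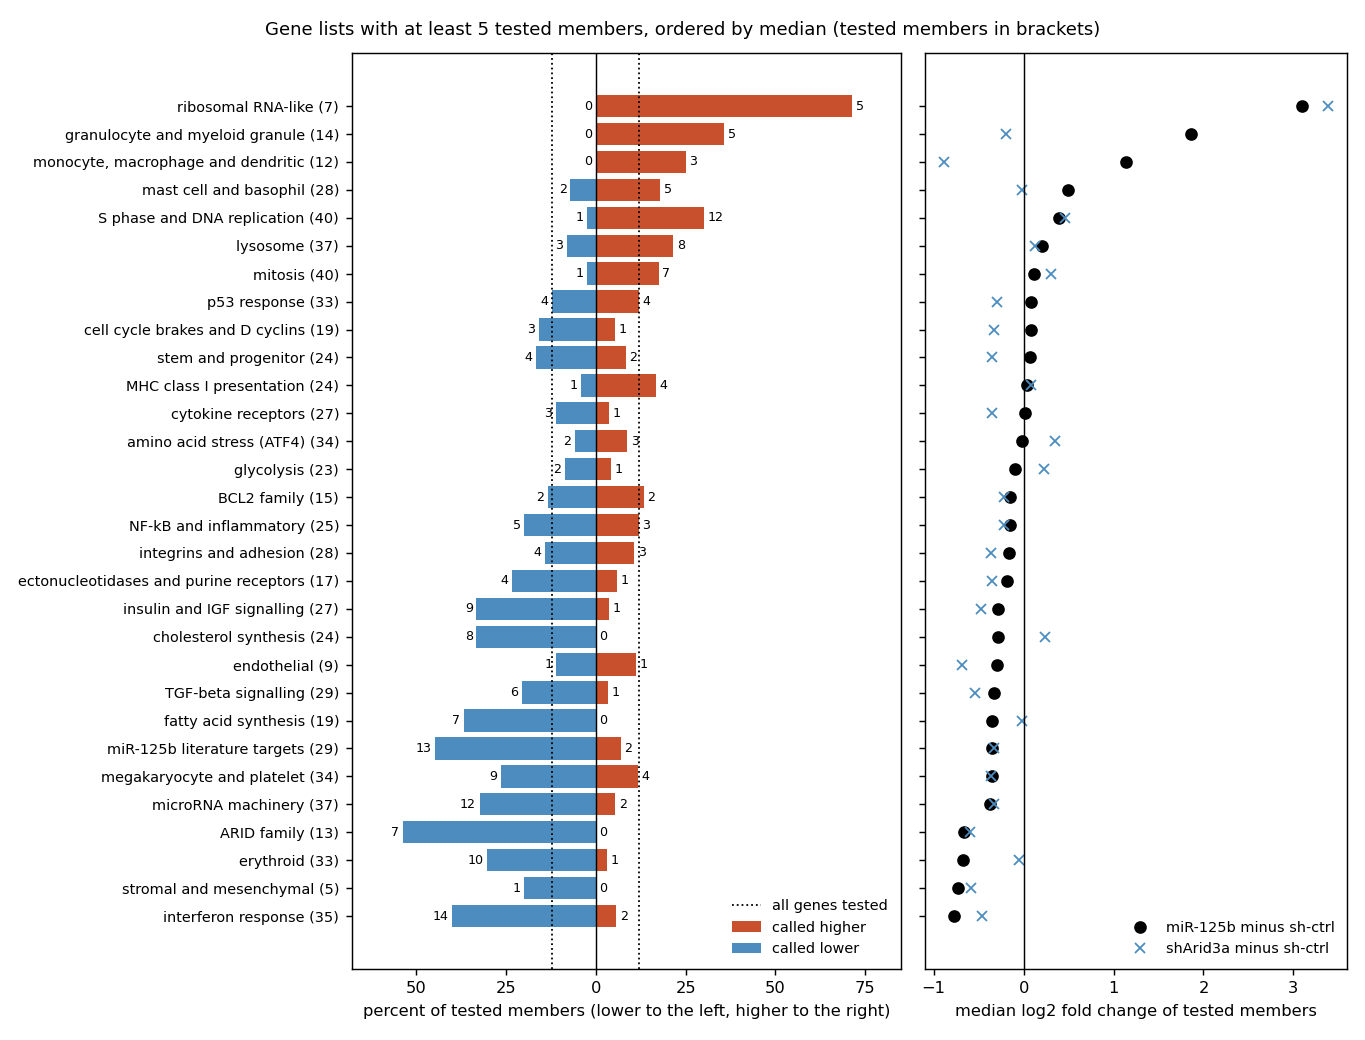
Left, percent of the tested members of each gene list called higher (red, to the right) or lower (blue, to the left) in miR-125b against sh-ctrl, with the number of genes beside each bar and dotted lines at the shares of all genes tested (12.1% and 12.2%); right, median log2 fold change of each list for miR-125b (dots) and shArid3a (crosses) against the same sh-ctrl libraries. Lists with at least 5 tested members are shown; the granulocyte median (1.86) includes genes that passed the filter only through miR-125b (-0.15 with 10 counts in every library), and the stromal median (-0.73) is over 5 genes with pair medians of -0.67, 0.54 and 0.21.

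List medians close to 0 changed sign with the scaling. With library totals in place of TMM the medians of the mitotic, stem, p53, cell cycle brake, cytokine receptor and MHC class I lists went from 0.12, 0.07, 0.09, 0.08, 0.02 and 0.04 to -0.08, -0.12, -0.09, -0.12, -0.17 and -0.15. The S phase median fell from 0.39 to 0.20. Of the 158 called genes named by the rule given below, none changed its direction in any alternative. Members named only for background are not covered by this.

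**Figure D5:**
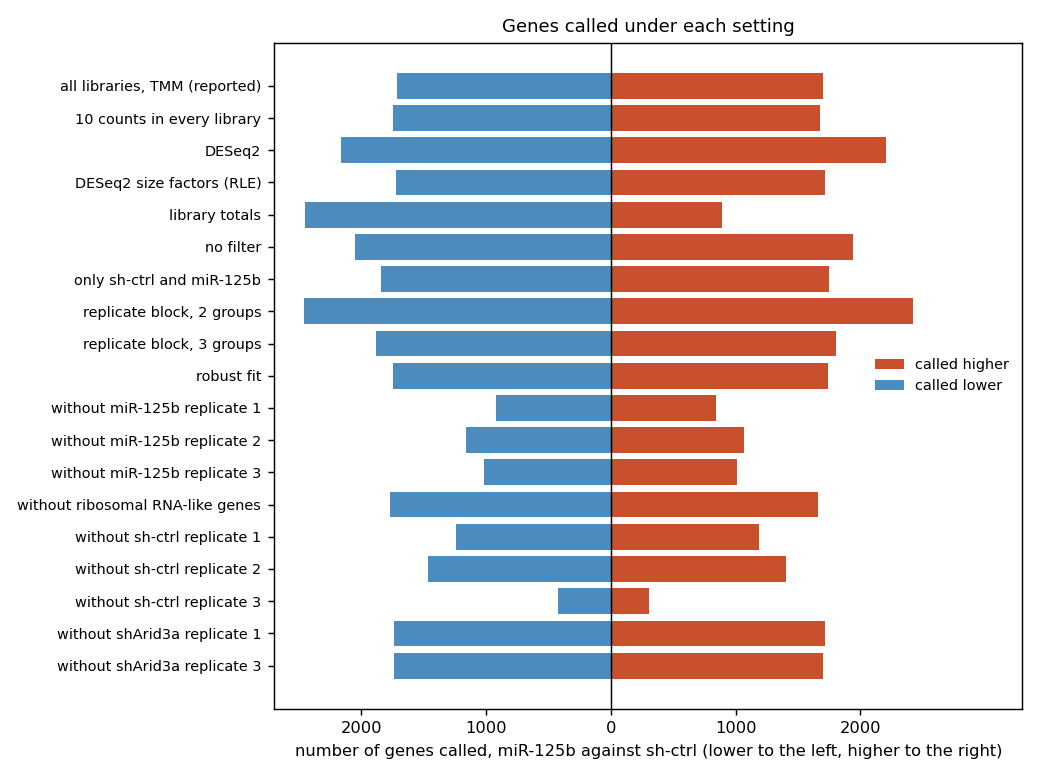
Number of genes called lower (to the left) and higher (to the right) in miR-125b against sh-ctrl (x axis) under each analysis setting (y axis). The count is lowest without sh-ctrl replicate 3 (734), and library totals turn the near-even split into 26.6% higher.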

How the data were processed

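RNA sequencing libraries of the sh-ctrl (3), miR-125b (3) and shArid3a (2) groups were used. The authors deposited unnormalized read counts for each gene. Total RNA was extracted, per the labels' protocols. The tools fastp, HISAT2 2.0.5 and featureCounts and the genome build mm10 are named in the submitters' processing notes, while the use of strand is not given in the sources used here. Groups and replicate numbers came from the labels. Gene symbols, positions and UTRs came from GENCODE M21 (GRCm38) by Ensembl identifier, for 46574 of 47069 identifiers. The members and gene lists were chosen with earlier results of these data known, and the lists support nothing by themselves.

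All 8 libraries were fitted with edgeR 4.0.16 (R 4.3.3): TMM scaling, filterByExpr, 1 term per group, glmQLFTest, and Benjamini-Hochberg adjustment over 14004 genes, with calls at 0.05 (5570 genes had an unadjusted p below 0.05). SE is the fold change divided by the root of F. Levels are CPM with TMM. The procedure was tested on simulated data. Those libraries were drawn independently with the spread estimated from these data, so the simulation cannot test effects of single libraries. Named genes were Arid3a, Gata1, the 10 largest rises and falls among called protein-coding genes whose groups did not overlap (average log2 CPM 3 or more), the 8 largest falls with an 8mer, and up to 4 called members of each of 34 lists per direction. Other members are named for background or, in the direct contrast and among genes with many matches, after their values were seen. Within the rule, genes that kept their call in the alternatives are described first. Within sh-ctrl and within miR-125b no pair of libraries was a duplicate by a chi-square comparison of counts. The shArid3a libraries and pairs across groups were not compared.

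Deviations of sh-ctrl and miR-125b libraries with the same replicate number correlated at 0.427, 0.151 and 0.294. A pair with unlike numbers, sh-ctrl replicate 3 and miR-125b replicate 2, reached 0.205, so these values do not settle the pairing. The numbers were taken as pairs only for the replicate block and the medians by replicate pair. The reported fit, its SE and its p-values used no replicate term. Alternatives were other scalings, filters and tests (DESeq2 1.42.0), a replicate block and each library left out. Figures were drawn with matplotlib. Some members of the lists are not reported here by name.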

Additional observations from a re-analysis of the deposited data

How the results depend on the processing

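With 1 library left out at a time, the shArid3a libraries (an alternative chosen after seeing the data) included, the genes called numbered 734 to 3452 (3414 with all), the called members of the lists 80 to 225 (214), the called named genes 71 to 157 (158) and the named genes that differed from shArid3a 3 to 12 (10). The Arid3a fold change ran from -2.68 to -2.42 and the median of the 8mer genes from -0.33 to -0.25 over the 6 sh-ctrl and miR-125b libraries. The lowest values of the first 3 counts came without sh-ctrl replicate 3, and that of the direct contrast without shArid3a replicate 1. Library totals moved the 8mer median from -0.29 to -0.48, with all genes going from -0.03 to -0.22. The named genes that differed from shArid3a were 19 with DESeq2, 22 without a filter, and 17 with the replicate block. Total calls were 4367 with DESeq2 and 3687 with the replicate block in 3 groups (4883 in 2 groups). Of the 158 named genes called, 153 kept the call under the block; beside those given above, Fcer1g (adjusted p = 0.06) and Acacb (0.052) lost it. Arid3a was called in all 16 alternatives, and 68 of the 158 genes kept their call in every one. None of these 158 genes reversed its direction. The 3 libraries per group limit what can be called.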

Other observations

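Gene families chosen after the data were seen had calls mostly in one direction, beside 12.1% of all genes called higher and 12.2% called lower. Of 80 genes of cytosolic ribosomal proteins 39 rose and 0 fell (median log2 fold change 0.56), of 77 genes of mitochondrial ribosomal proteins 54 rose and 0 fell (0.62), of 88 nuclear genes of the respiratory chain 66 rose and 0 fell (0.72), and of 38 proteasome subunits 22 rose and 0 fell (0.58). The 13 genes of the mitochondrial genome did not follow, with 0 rises, 3 falls and a median of -0.22. With library totals the first 4 medians were lower and still above 0 (0.36, 0.42, 0.53 and 0.39).

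Families of chromatin and zinc finger genes had more falls than rises, beside 12.2% of all genes called lower. Of 25 Kmt and Kdm genes, which write and erase lysine methylation, 14 fell and 0 rose (median -0.68), of 26 Chd, Smarc and Baz genes 9 fell and 2 rose (-0.26), and of 329 Zfp genes 56 fell and 8 rose (-0.31). In shArid3a against the same sh-ctrl libraries the medians were 0.52 for cytosolic and 0.51 for mitochondrial ribosomal proteins, 0.53 for the respiratory chain, -0.51 for Kmt and Kdm and -0.21 for Zfp genes. Between miR-125b and shArid3a directly, 0 genes of these families were called, and their medians lay between -0.24 and 0.20.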
